A study of Mus musculus with 4 samples.

Results

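Interferon-stimulated genes are the genes a cell transcribes when it senses an interferon. Interferons alpha and beta act through the receptor chains IFNAR1 and IFNAR2 and the kinases JAK1 and TYK2, and a complex that holds STAT2 and IRF9 then binds the interferon-stimulated response element of target promoters. Interferon gamma acts through IFNGR1, IFNGR2, JAK1 and JAK2, and its signal reaches promoters that hold the gamma-activated sequence. The products block virus entry, degrade or sense foreign RNA, and feed back on the pathway, and CD4 T cells both respond to interferons and make interferon gamma. A list of 40 of these genes was followed by symbol in RNA from cultured Th2 cells, the helper T cells that make IL-4, IL-5 and IL-13. All 40 symbols were found, each on 1 line, among 23283 symbols with a value in every library.

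The cells were C57BL/6 splenic CD4 T cells, Menin knockout (KO) or wild type (WT), and Menin is a subunit of Trithorax group complexes. There were 4 libraries, 1 each of Menin KO in the longer culture, WT in the longer culture, Menin KO at 5 days and WT at 5 days. The 5-day cells grew under Th2 conditions, in 15 ng/ml of IL-2 plus 10 ng/ml of IL-4. The longer culture, labelled as 3 weeks, began the same way. It went on with 2 days without added cytokines and 5 days on plate-bound antibody to the T cell receptor, in medium with IL-2 and a blocking antibody to IL-4. These steps sum to less than 3 weeks. Not given in the sources used here: how Menin was deleted, in which cells, and how many mice each library came from. The 3-week and 5-day cultures therefore differ in restimulation, IL-4 and the blocking antibody as well as in time. The values are FPKM, fragment counts scaled to the length of the transcript and the depth of the library. With 1 library in each group no difference between 2 libraries has a replicate check, and none was tested. A gene was counted as higher or lower where log2((a + 1)/(b + 1)) of its FPKM values was at least 1 in size, a 2-fold rule that understates differences of low genes.

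The depth inferred from the spacing of low FPKM values was 21.6 M reads in KO 3-week, 23.6 M in WT 3-week, 22.6 M in KO 5-day and 20.7 M in WT 5-day. Intervals given with ratios below are 95% counting intervals from the reads these depths imply, which cover counting error only and are approximate. Men1 stood at 5.88 FPKM in KO and 25.4 FPKM in WT at 3 weeks, and at 10.3 FPKM in KO and 32.8 FPKM in WT at 5 days. The T cell genes Cd4 (147 to 307 FPKM) and Cd3e (203 to 318 FPKM) were high in all 4 libraries. Of 8 T cell and Th2 markers, 1 was at least 2-fold higher in KO at 3 weeks, Cd3g, and 4 lower. Genes with a mean of at least 1 FPKM over the 4 libraries are called compared, and of these 7.97% were higher and 8.19% lower. The 4 lower markers were the Th2 factor gene Gata3 (45.9 FPKM in KO and 93.8 FPKM in WT) and the Th2 cytokine genes Il4 (6.395 and 21.9 FPKM in KO and WT), Il5 (22.4 and 95.1 FPKM) and Il13 (19.1 and 104.8 FPKM). At 5 days 0 of the 8 were past the rule, near the shares over all compared genes, 2.77% higher and 0.82% lower. The 6 B cell markers summed to 0.155 to 2.79 FPKM and the B cell factor gene Pax5 was listed at 0 in all 4 libraries. The 6 plasmacytoid dendritic cell markers summed to 4.15 FPKM in KO and 0.919 FPKM in WT at 3 weeks, and to 4.43 FPKM in KO and 3.55 FPKM in WT at 5 days. Tcf4 was the one past the 2-fold rule at 3 weeks, at 2.95 FPKM in KO and 0.663 FPKM in WT, and Siglech was listed at 0 in 3 libraries. The 6 CD8 T cell and NK markers summed to 6.20 FPKM in KO and 2.05 FPKM in WT at 3 weeks, and to 7.95 FPKM in KO and 4.70 FPKM in WT at 5 days, and 4 of the 6 were listed at 0 in WT 3-week. Of these, Klrb1c alone was past the 2-fold rule, and it was so at both times. It stood at 1.96 FPKM in KO and 0.0174 FPKM in WT at 3 weeks, and at 1.51 FPKM in KO and 0.119 FPKM in WT at 5 days. Cd8a stood at 0.653 FPKM in KO and 0 in WT at 3 weeks, and Cd8b1 at 3.12 FPKM in KO and 2.04 FPKM in WT. The 8 macrophage and dendritic cell markers did not all move together. Their sum was 130 FPKM in KO and 3.68 FPKM in WT at 3 weeks, and 74.4 FPKM in KO and 10.9 FPKM in WT at 5 days, and most of it in KO was Fcer1g. Itgax and Itgam reached the mean of 1 FPKM, and so were compared, through KO libraries alone, so the filter itself favoured a higher KO value. All 4 of these markers that were compared were at least 2-fold higher in KO at 3 weeks, where 7.97% of all compared genes were. They were Fcer1g (104 FPKM in KO and 0.186 FPKM in WT), Cd68 (12.9 and 3.25 FPKM in KO and WT), Itgax (8.63 and 0.0497 FPKM) and Itgam (4.75 and 0.0283 FPKM), while the macrophage gene Csf1r was listed at 0 in both 3-week libraries and Lyz2 at 0 in KO 3-week. Whether these other cell types were present, and their part in the results, was not tested. In bulk RNA a change in the share of responding cells and a change of RNA per cell cannot be told apart.

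Many of the promoters examined, but not all, share a short sequence. RefSeq promoter windows (GRCm38.p6), from 250 bases before to 50 after the transcription start, were matched for 31 of the 40 genes. Usp18, Parp9, Mx1, Mx2, Oas2, Dhx58, Zbp1, Rtp4 and Parp14 were not matched. The core of the interferon-stimulated response element was searched as GAAA, any 2 bases and GAAA on either strand, so also as TTTC, any 2 bases and TTTC, with overlapping matches allowed. It was found in 16 of the 31 genes (51.6%), against 1079 of 27025 genes in the promoter table (3.99%) and 299 of the 7774 table genes that were compared here (3.85%). The gamma-activated sequence, TTCNNNGAA, which reads the same on both strands, was found in 10 of the 31 (32.3%), against 2582 of the 27025 genes (9.55%). The first 8 windows below show the response element in genes that differ in how far KO and WT stood apart, from Ifit1 and Isg15 to Bst2 and Oas3. The last is the gamma-activated sequence of Irf1. Each is written 5′ to 3′ on the gene's strand with the match in capitals, overlapping matches run together, and all end before the transcription start.
Ifit1, chr19:34640765-34640833, plus strand: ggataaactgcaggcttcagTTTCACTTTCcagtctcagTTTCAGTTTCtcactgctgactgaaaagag
Isg15, chr4:156200855-156200916, minus strand: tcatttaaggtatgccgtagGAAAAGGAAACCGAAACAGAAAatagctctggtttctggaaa
Ifit3, chr19:34583353-34583436, plus strand: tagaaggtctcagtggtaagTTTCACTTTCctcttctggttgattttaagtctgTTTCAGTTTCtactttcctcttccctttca
Rsad2, chr12:26456543-26456592, minus strand: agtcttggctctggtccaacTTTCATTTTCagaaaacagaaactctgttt
Oas1a, chr5:120907526-120907565, minus strand: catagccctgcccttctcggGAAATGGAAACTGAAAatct
Igtp, chr11:58199502-58199551, plus strand: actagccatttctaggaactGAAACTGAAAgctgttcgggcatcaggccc
Bst2, chr8:71537567-71537622, minus strand: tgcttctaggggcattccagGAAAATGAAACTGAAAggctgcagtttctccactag
Oas3, chr5:120777705-120777754, minus strand: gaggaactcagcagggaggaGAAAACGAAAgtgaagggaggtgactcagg
Irf1, chr11:53769904-53769952, plus strand: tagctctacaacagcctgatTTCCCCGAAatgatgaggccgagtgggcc
Isg15 held 3 overlapping matches between 78 and 57 bases before its start, and Ifit1 held 2 separate ones, the first base of each 104 and 85 bases before its start. Bst2 also held 2 matches, and it did not reach the 2-fold rule at either time. Of the 28 genes that were compared and had a promoter, 14 held the response element and 14 did not. At least 2-fold higher in KO at 3 weeks were 8 of the 14 with it and 7 of the 14 without it. Their median log2 ratios were 1.09 and 0.85. For the gamma-activated sequence, 2 of 9 with it and 13 of 19 without it were at least 2-fold higher, with medians of 0.63 and 1.14. Of all compared genes 7.97% were at least 2-fold higher at that time.

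At 3 weeks, Menin KO cells had more RNA of nearly the whole list than WT cells. Of all 40 members 39 stood above WT in KO, where 48.1% of the 17358 symbols above 0 in any library did, and 1, Ifi35, stood below it. By the 2-fold rule 23 of the 40 were higher and 0 lower, where 5.71% of the 17358 symbols were higher and 5.28% lower. The median log2 ratio of the 40 was 1.07. Of the 40, 35 had a mean of at least 1 FPKM over the 4 libraries and are called compared below. The 5 others were Usp18, Ifit3, Oas1a, Oas2 and Ifi44. Among the 35 the rule gave 21 higher and 0 lower and the median was 1.11, where 7.97% of the 10973 compared genes were higher and 8.19% lower, with a median of -0.08. A mean filter can let a gene in through the library where it is high. Of the 29 members with at least 1 FPKM in both WT libraries, 15 were higher, where 5.54% of 10256 such genes were. Summed over the 40, FPKM was 1573 in KO and 757 in WT at 3 weeks, which were 0.329% and 0.162% of all FPKM.

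**Figure D1:**
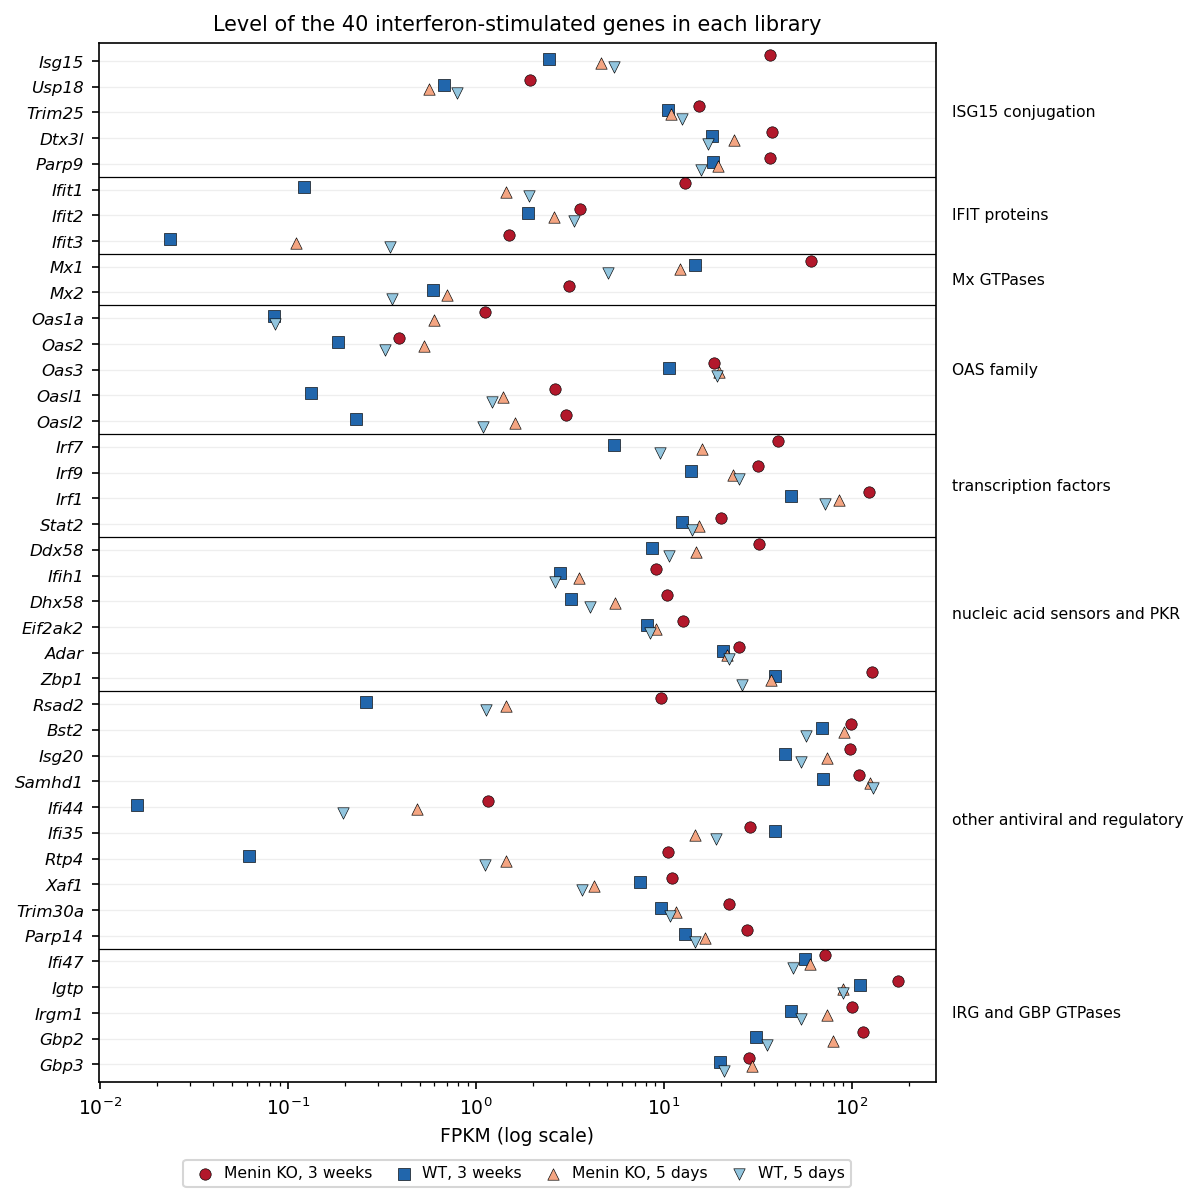
FPKM (log scale) of each of the 40 genes in the 4 libraries, 1 symbol per library, grouped by role, with the symbols of a gene set slightly apart in height. The KO 3-week library is the highest of the 4 for 35 genes, and the WT 3-week library is the lowest for 28, where these held for 31.5% and 24.4% of the 17358 symbols.

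At 5 days the list stood much closer between the genotypes. Of the 40, 29 stood above WT in KO and 11 below it, where 48.6% of the 17358 symbols stood above. By the 2-fold rule 2 were higher, Mx1 and Gbp2, and 0 were lower, where 1.83% of the 17358 symbols were higher and 0.547% lower. Among the 35 compared members that was 5.71%, beside 2.77% of all compared genes higher and 0.82% lower, and the median was 0.21 beside -0.02. The sum over the 40 was 1002 FPKM in KO and 816 FPKM in WT. Counting intervals of the KO to WT ratio lay above 1 for 21 genes and below 1 for 4 at 5 days, against 39 and 1 at 3 weeks. Intervals were not counted over all genes, so these counts have no share to be set beside. Intervals of abundant genes are narrow and can leave out 1 at small differences. The 4 below 1 at 5 days were Trim25, Ifit2, Samhd1 and Ifi35.

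The log2 ratio of KO to WT, its sign included, was larger at 3 weeks than at 5 days for 38 of the 40 genes, the exceptions being Bst2 and Ifi35, where it was larger for 47.2% of the 17358 symbols. By at least 4-fold it was larger for 4 of the 35 compared genes, Ifit1, Isg15, Rtp4 and Rsad2, where 1.26% of compared genes were. That count was 7 with a pseudocount of 0.1, and 1 with a pseudocount of 5, with a mean of at least 5 FPKM or with at least 1 FPKM in both WT libraries. The shares over all genes under these settings are not given here. By at least 2-fold it was larger in 17 of the 40, where 3.2% of the 17358 symbols were. The 2 genotype contrasts share no library. Over the 35 compared members their log2 ratios had a Pearson correlation of 0.157, and over all 10973 compared genes 0.433. Genes share libraries and are not replicates, so these are descriptions. None of these differences was tested.

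**Figure D2:**
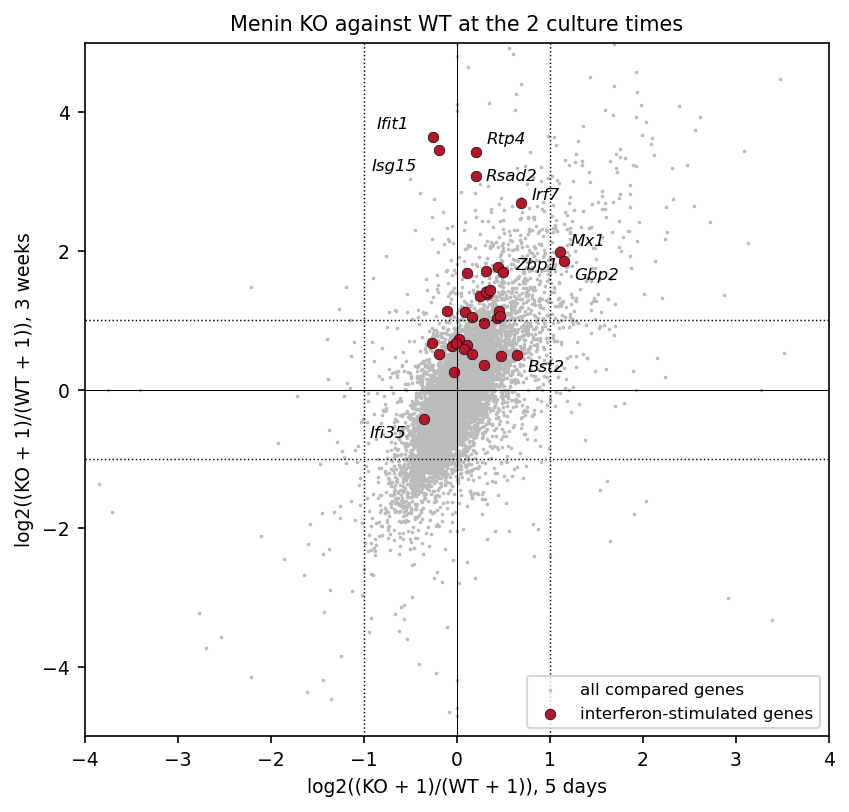
Log2 ratio of Menin KO to WT with a pseudocount of 1 FPKM at 3 weeks (vertical) against 5 days (horizontal) for the 35 compared list genes (red) and all compared genes (grey), with dotted lines at the 2-fold rule and 97 genes outside the axes. Most red points lie above 0 at 3 weeks and near 0 at 5 days, and Ifit1, Isg15, Rtp4 and Rsad2 lie highest.

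Among the ubiquitin-like modifier ISG15 and its machinery, the modifier's own gene had the largest ratio at 3 weeks. Isg15 encodes the modifier that is attached to proteins after interferon. It lies on chromosome 4 (156199424 to 156200818, GRCm38) and stood at 36.8 FPKM in KO and 2.44 FPKM in WT at 3 weeks, and at 4.61 FPKM in KO and 5.41 FPKM in WT at 5 days. KO 3-week thus stood apart from the other 3 libraries, with a KO to WT ratio of 15.1 at 3 weeks (10.5 to 22.3) and 0.852 at 5 days (0.588 to 1.25). Its log2 ratio at 3 weeks ranked 75 from the top of 10973. Usp18, whose product removes ISG15 and damps signalling at the receptor, was low, at 1.94 FPKM in KO and 0.673 FPKM in WT at 3 weeks, and at 0.560 FPKM in KO and 0.793 FPKM in WT at 5 days. Trim25, a ubiquitin ligase that acts on the RNA sensor RIG-I, stood at 15.4 FPKM in KO and 10.4 FPKM in WT at 3 weeks, and at 10.9 and 12.5 FPKM in KO and WT at 5 days. Trim25 did not reach the 2-fold rule at either time. Dtx3l, a ubiquitin ligase, and Parp9, its partner, lie on opposite strands of chromosome 16 and overlap by 682 bases. Dtx3l stood at 37.6 FPKM in KO and 17.9 FPKM in WT at 3 weeks, and Parp9 at 36.4 FPKM in KO and 18.3 FPKM in WT. At 5 days Dtx3l stood at 23.6 FPKM in KO and 17.1 FPKM in WT, and Parp9 at 19.4 FPKM in KO and 15.7 FPKM in WT. The pair had nearly the same level in every library, but whether the authors' counting used strand is not stated, so reads in the overlap could go to either gene.

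The IFIT genes, whose products bind foreign RNA and hold back its translation, differed widely among themselves at 3 weeks. Ifit1 stood at 13.0 FPKM in KO and 0.121 FPKM in WT at 3 weeks, and at 1.45 FPKM in KO and 1.92 FPKM in WT at 5 days. The WT 3-week value rests on about 7 reads, and the ratio was 107 (51.9 to 268). Ifit3 stood at 1.49 FPKM in KO and 0.0235 FPKM in WT at 3 weeks, about 50 reads and 1 read, a ratio of 63.5 (9.37 to 2200). At 5 days Ifit3 stood at 0.110 FPKM in KO and 0.346 FPKM in WT. Ifit2 stood at 3.59 FPKM in KO and 1.89 FPKM in WT at 3 weeks and at 2.60 FPKM in KO and 3.33 FPKM in WT at 5 days. All 3 were thus below WT at 5 days and above it at 3 weeks, with 5-day intervals that include 1 for Ifit1 and Ifit3 and end at 0.941 for Ifit2. The 3 genes lie on chromosome 19 from 34550694 to 34650009, and close copies in that cluster make each value uncertain.

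The Mx genes encode dynamin-like GTPases that act against viruses, although Mx1 of most laboratory mouse strains, C57BL/6 among them, is known to carry a deletion that inactivates the protein. Mx1 stood at 60.8 FPKM in KO and 14.6 FPKM in WT at 3 weeks, and at 12.1 FPKM in KO and 5.06 FPKM in WT at 5 days. Mx1 and Gbp2 were the 2 members past the 2-fold rule in both cultures, where 1.25% of the 17358 symbols were. Mx1 had ratios of 4.16 (3.85 to 4.49) at 3 weeks and 2.40 (2.08 to 2.78) at 5 days. Mx2 followed the same order of libraries except that KO 5-day lay above WT 3-week, at 3.12 FPKM in KO and 0.591 FPKM in WT at 3 weeks and 0.704 FPKM in KO and 0.356 FPKM in WT at 5 days. The 2 genes are 72.4 kb apart on chromosome 16.

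The OAS genes make 2′-5′ oligoadenylates, which switch on the ribonuclease RNase L, and the Oasl genes are their relatives. Of the 5, the most abundant was Oas3, at 18.4 FPKM in KO and 10.7 FPKM in WT at 3 weeks, and at 19.5 FPKM in KO and 19.2 FPKM in WT at 5 days. For Oas3 the WT 3-week library was the one that stood apart, below the other 3. Oasl1 stood at 2.62 FPKM in KO and 0.132 FPKM in WT at 3 weeks, and at 1.39 FPKM in KO and 1.22 FPKM in WT at 5 days. Oasl2 stood at 3.02 FPKM in KO and 0.230 FPKM in WT at 3 weeks, and at 1.60 FPKM in KO and 1.09 FPKM in WT at 5 days. Both had ratios of more than 10 at 3 weeks, 19.9 (9.08 to 56.8) for Oasl1 and 13.1 (7.83 to 23.3) for Oasl2, from few WT reads. Oas1a and Oas2 were under 1.2 FPKM in every library, with Oas1a at 1.12 FPKM in KO and 0.0835 FPKM in WT at 3 weeks, about 41 and 3 reads, and at 0.599 FPKM in KO and 0.0852 FPKM in WT at 5 days. Oas2 stood at 0.391 FPKM in KO and 0.184 FPKM in WT at 3 weeks, and at 0.527 FPKM in KO and 0.327 FPKM in WT at 5 days. Oas2 was the one OAS gene besides Oas3 with its highest level in KO 5-day. Oas1a has close copies, and its value is uncertain.

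The transcription factors of the pathway itself stood higher in KO at 3 weeks. Irf7 encodes the factor that drives the later wave of interferon alpha genes. It stood at 40.4 FPKM in KO and 5.43 FPKM in WT at 3 weeks, and at 16.0 FPKM in KO and 9.50 FPKM in WT at 5 days. Its ratio was 7.45 (6.45 to 8.61) at 3 weeks and 1.68 (1.47 to 1.93) at 5 days, so KO lay above WT both times. Irf7 overlaps Phrf1 on the other strand. Irf1, a factor gene that responds strongly to interferon gamma and whose window above holds the gamma-activated sequence, was abundant, at 123 FPKM in KO and 47.5 FPKM in WT at 3 weeks, and at 85.2 FPKM in KO and 71.5 FPKM in WT at 5 days. Its ratio was 2.59 at 3 weeks (2.46 to 2.73) and 1.19 at 5 days (1.13 to 1.25). Irf9, the DNA-binding part of the complex it forms with STAT2, stood at 31.7 FPKM in KO and 13.9 FPKM in WT at 3 weeks, and at 23.4 FPKM in KO and 25.2 FPKM in WT at 5 days. Irf9 overlaps Rnf31 on the same strand, and reads could be split between them. Stat2, the complex's transactivating part, stood at 20.02 FPKM in KO and 12.4 FPKM in WT at 3 weeks, and at 15.3 FPKM in KO and 14.1 FPKM in WT at 5 days, under the 2-fold rule. All 4 factors were lower in WT 3-week than in WT 5-day and higher in KO 3-week than in KO 5-day.

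Sensors of foreign nucleic acid were among the members that stood apart at 3 weeks. Zbp1, a sensor of left-handed nucleic acid that can start cell death, stood at 128 FPKM in KO and 38.9 FPKM in WT at 3 weeks, and at 37.1 FPKM in KO and 26.1 FPKM in WT at 5 days. KO 3-week was more than 3 times each other library, and the ratio at that time was 3.30 (3.12 to 3.49). The 3 helicases of the RIG-I family had similar ratios. Ddx58, which encodes RIG-I, stood at 31.9 FPKM in KO and 8.61 FPKM in WT at 3 weeks, and at 14.8 FPKM in KO and 10.6 FPKM in WT at 5 days. Ifih1, which encodes MDA5, stood at 9.08 FPKM in KO and 2.79 FPKM in WT at 3 weeks, and at 3.52 FPKM in KO and 2.62 FPKM in WT at 5 days. Dhx58, which encodes the regulator LGP2, stood at 10.4 FPKM in KO and 3.21 FPKM in WT at 3 weeks, and at 5.46 FPKM in KO and 4.03 FPKM in WT at 5 days. Their KO to WT ratios were 3.70 (3.41 to 4.03), 3.26 (2.89 to 3.70) and 3.23 (2.70 to 3.86) at 3 weeks, with overlapping intervals for Ifih1 and each of the others, and 1.34 to 1.40 at 5 days. Eif2ak2, which encodes the kinase PKR, and Adar, which edits RNA and keeps these sensors quiet, did not reach the 2-fold rule. Eif2ak2 stood at 12.6 FPKM in KO and 8.08 FPKM in WT at 3 weeks, and at 9.03 FPKM in KO and 8.45 FPKM in WT at 5 days. Adar stood at 24.96 FPKM in KO and 20.7 FPKM in WT at 3 weeks, and at 21.7 FPKM in KO and 22.2 FPKM in WT at 5 days. Adar overlaps Chrnb2 on the other strand, and its 4 libraries lay within a narrow range.

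The other antiviral genes ranged from the largest FPKM ratio of the list at 3 weeks to the one member that was lower in KO at that time. Rtp4, which encodes an interferon-induced transporter-type protein, stood at 10.5 FPKM in KO and 0.0616 FPKM in WT at 3 weeks, and at 1.44 FPKM in KO and 1.12 FPKM in WT at 5 days. About 2 reads lie behind the WT 3-week value, so the ratio of 170 has an interval of 46.6 to 1409, and Rtp4 overlaps Masp1 on the other strand. Rsad2, which encodes viperin, stood at 9.61 FPKM in KO and 0.259 FPKM in WT at 3 weeks, and at 1.45 FPKM in KO and 1.12 FPKM in WT at 5 days, with a ratio of 37.1 (24.2 to 59.3) at 3 weeks. Ifi44 had the same order of libraries at a lower level, at 1.16 FPKM in KO and 0.0156 FPKM in WT at 3 weeks, about 68 reads and 1 read, and at 0.487 FPKM in KO and 0.195 FPKM in WT at 5 days. For these 3 genes WT 3-week was the lowest library and KO 3-week the highest. Isg20, Trim30a and Parp14 were more abundant, had smaller ratios and passed the 2-fold rule at 3 weeks alone. Isg20, an exonuclease gene, stood at 97.4 FPKM in KO and 43.9 FPKM in WT at 3 weeks, and at 73.9 FPKM in KO and 53.4 FPKM in WT at 5 days. Trim30a, a gene of the TRIM family of ubiquitin ligases, stood at 22.1 FPKM in KO and 9.69 FPKM in WT at 3 weeks, and at 11.6 FPKM in KO and 10.8 FPKM in WT at 5 days. Parp14, a gene of the Parp9 and Dtx3l cluster on chromosome 16 (35832874 to 35972605 for the 3 genes), stood at 27.8 FPKM in KO and 12.9 FPKM in WT at 3 weeks, and at 16.4 FPKM in KO and 14.6 FPKM in WT at 5 days.

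Bst2, Samhd1, Xaf1 and Ifi35 did not reach the 2-fold rule at either time. Bst2, which encodes the virus-tethering protein tetherin, stood at 98.5 FPKM in KO and 69.3 FPKM in WT at 3 weeks, and at 90.4 FPKM in KO and 57.1 FPKM in WT at 5 days. Its ratio was not larger at 3 weeks, 1.42 (1.31 to 1.55), than at 5 days, 1.58 (1.44 to 1.74). Samhd1, which degrades the nucleotides needed for reverse transcription, stood at 109 FPKM in KO and 70.4 FPKM in WT at 3 weeks, and at 124 FPKM in KO and 129 FPKM in WT at 5 days, so WT 3-week stood below the rest. Xaf1, a gene of a pro-death factor, stood at 11 FPKM in KO and 7.41 FPKM in WT at 3 weeks, and at 4.24 FPKM in KO and 3.67 FPKM in WT at 5 days. Ifi35 stood at 28.8 FPKM in KO and 39.1 FPKM in WT at 3 weeks, and at 14.6 FPKM in KO and 18.9 FPKM in WT at 5 days. It was lower in KO both times, with ratios of 0.737 (0.669 to 0.810) and 0.773 (0.673 to 0.887), neither past the 2-fold rule. Across the 35 compared members, log2 mean FPKM and the 3-week log2 ratio had a Pearson correlation of -0.372, a description over genes that share all 4 libraries.

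The interferon-inducible GTPases of the IRG and GBP families, which are strongly induced by interferon gamma and attack vacuoles of intracellular parasites, had the highest summed FPKM of the role groups at 3 weeks. Their 5 genes summed to 489 FPKM in KO and 264 FPKM in WT at 3 weeks, and to 332 FPKM in KO and 248 FPKM in WT at 5 days. Gbp2 stood at 115 FPKM in KO and 31 FPKM in WT at 3 weeks, and at 79.7 FPKM in KO and 35.3 FPKM in WT at 5 days. Both KO libraries lay above both WT libraries, with ratios of 3.69 (3.50 to 3.90) at 3 weeks and 2.26 (2.13 to 2.39) at 5 days. Gbp3, 47.4 kb away on chromosome 3, had nearly the same ratio both times, 1.42 (1.31 to 1.53) at 3 weeks and 1.41 (1.31 to 1.53) at 5 days. It stood at 28.2 FPKM in KO and 19.9 FPKM in WT at 3 weeks, and at 29.3 FPKM in KO and 20.7 FPKM in WT at 5 days, the one gene of the group whose KO level was not highest at 3 weeks. Irgm1 stood at 99.6 FPKM in KO and 47.3 FPKM in WT at 3 weeks, and at 74.0 FPKM in KO and 53.4 FPKM in WT at 5 days. Igtp, the most abundant member of the list at 3 weeks, stood at 175 FPKM in KO and 110 FPKM in WT at that time. At 5 days it stood at 89.7 FPKM in KO and 89.8 FPKM in WT, below Samhd1 in both. Igtp overlaps Irgm2 on the same strand, and Ifi47 overlaps Olfr56, so reads could be split. Ifi47 stood at 71.8 FPKM in KO and 56.0 FPKM in WT at 3 weeks, and at 59.6 FPKM in KO and 48.5 FPKM in WT at 5 days, so KO lay somewhat above WT both times. These genes have close copies, between which the counting could divide reads. No gene of this group had a genotype difference at least 2-fold larger at 3 weeks than at 5 days (0 of 5), and with 3.2% of the 17358 symbols doing so, 0 of 5 is near that share.

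**Figure D3:**
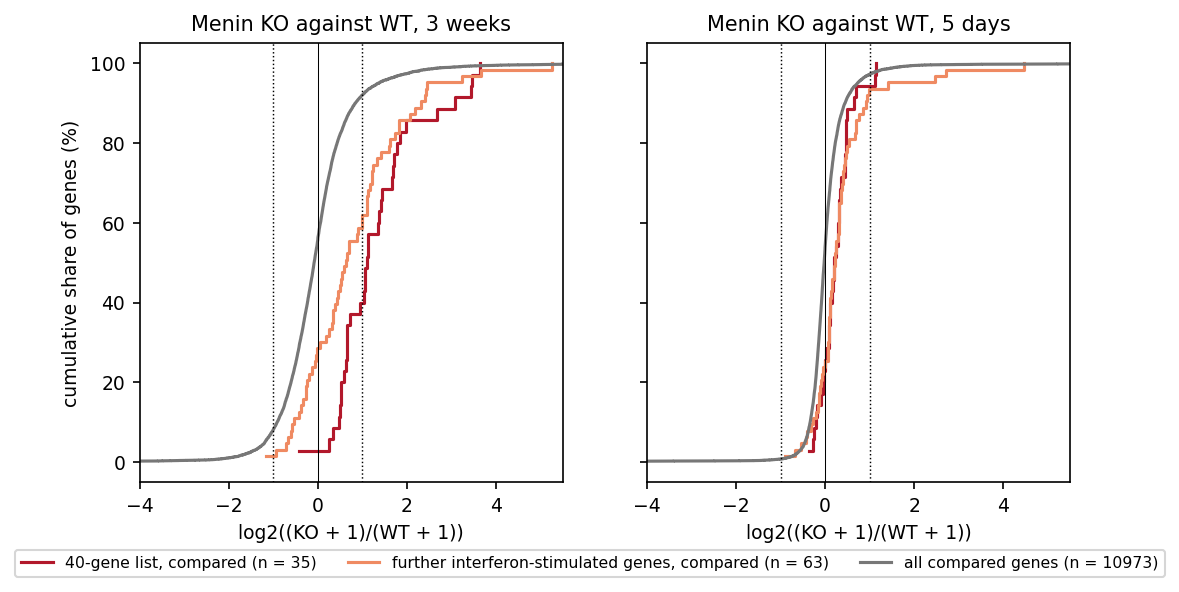
Cumulative share of genes (%) by log2 ratio of Menin KO to WT with a pseudocount of 1 FPKM, at 3 weeks (left) and 5 days (right), for the compared genes of the list, a further set of interferon-stimulated genes and all compared genes, with dotted lines at the 2-fold rule. At 3 weeks the list has a median of 1.11, the further set 0.64 and all compared genes -0.08.

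Most of the list stood higher at 3 weeks than at 5 days in KO and, by less, lower in WT. Within KO, 36 of the 40 genes had a higher FPKM at 3 weeks than at 5 days, where 43.8% of the 17358 symbols did. By the 2-fold rule 12 were higher and 0 lower, where 3.08% of the symbols were higher and 2.89% lower. Within WT, 29 of the 40 had a lower FPKM at 3 weeks than at 5 days, where 48.1% of the symbols did. By the 2-fold rule 2 were higher and 1 lower, where 2.03% were higher and 1.9% lower, so these WT counts are near those shares. The 2 higher in WT were Mx1 and Ifi35, and the lower one was Ifit1. Isg15, for example, was 7.99 times as high in KO at 3 weeks as in KO at 5 days, and 0.452 times as high in WT at 3 weeks as in WT at 5 days. Irf7 was 2.53 times as high in KO and 0.571 times as high in WT. The median log2 ratios of 3 weeks to 5 days over the 40 were 0.64 in KO and -0.17 in WT. These contrasts share libraries with the genotype contrasts and are the same values read another way.

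Genes upstream of the list were measured in the same libraries. Of 21 interferon ligand genes, 16 were listed at 0 in KO 3-week and 18 in each of the other libraries. Ifnb1, the interferon beta gene, was at 0.0815 FPKM in KO 3-week, and the other 3 libraries list it at 0. That value rests on about 1 read, and Ifna11, at 0.208 FPKM in KO 3-week alone, on about 2. Reads this few do not tell KO 3-week from the other libraries. Ifng, which encodes interferon gamma, was the one ligand compared, at 6.03 FPKM in KO and 0.168 FPKM in WT at 3 weeks, and at 0.700 FPKM in KO and 0.477 FPKM in WT at 5 days. It passed the mean filter through KO 3-week alone. About 131 reads in KO and 4 in WT lie behind its 3-week values. At 5 days there were about 16 reads in KO and 10 in WT, and the interval of the ratio, 0.625 to 3.61, included 1. The receptor gene Ifngr1 stood at 178 FPKM in KO and 48.2 FPKM in WT at 3 weeks, and at 125 FPKM in KO and 62.5 FPKM in WT at 5 days. Its partner Ifngr2 was lower in KO at 3 weeks, at 2.52 FPKM in KO and 5.67 FPKM in WT, just short of the 2-fold rule, and nearly level at 5 days, at 11.7 FPKM in KO and 11.8 FPKM in WT. Ifnar1 stood at 15.1 FPKM in KO and 12.5 FPKM in WT at 3 weeks, and Ifnar2 at 23.4 FPKM in KO and 18.2 FPKM in WT. Of 9 compared receptor, JAK and STAT genes 1 was at least 2-fold higher in KO at 3 weeks, Ifngr1, and 0 were lower, with a median of 0.35, counts near the shares over all compared genes (7.97% higher and 8.19% lower). At 5 days 0 were higher and 0 lower, with Ifngr1 just under the rule at a log2 ratio of 0.99.

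Of 10 negative regulators, genes that restrain the pathway, 0 were higher and 0 lower at either time, with medians of -0.08 at 3 weeks and 0.02 at 5 days. With 7.97% of all compared genes higher and 8.19% lower at 3 weeks, and 2.77% and 0.82% at 5 days, 0 of 10 is near the shares over all genes. Socs1, which inhibits the JAK kinases and is itself induced by interferon gamma, stood at 94.2 FPKM in KO and 125 FPKM in WT at 3 weeks, and at 36.0 FPKM in KO and 32.0 FPKM in WT at 5 days. Irf2, a repressor that binds the same promoter element, stood at 30.3 FPKM in KO and 39.2 FPKM in WT at 3 weeks. Of 12 compared upstream sensors and adaptors, 1 was higher and 1 lower in KO at 3 weeks, which is near the same shares. Irf8 was the higher, at 13.1 FPKM in KO and 5.5 FPKM in WT, and Irf4 the lower, at 5.09 FPKM in KO and 67.9 FPKM in WT. The adaptor genes Tmem173, which encodes STING, and Mavs were nearly level at 3 weeks. Tmem173 stood at 101 FPKM in KO and 103 FPKM in WT, while Mavs stood at 14.4 FPKM in KO and 13.9 FPKM in WT.

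**Figure D4:**
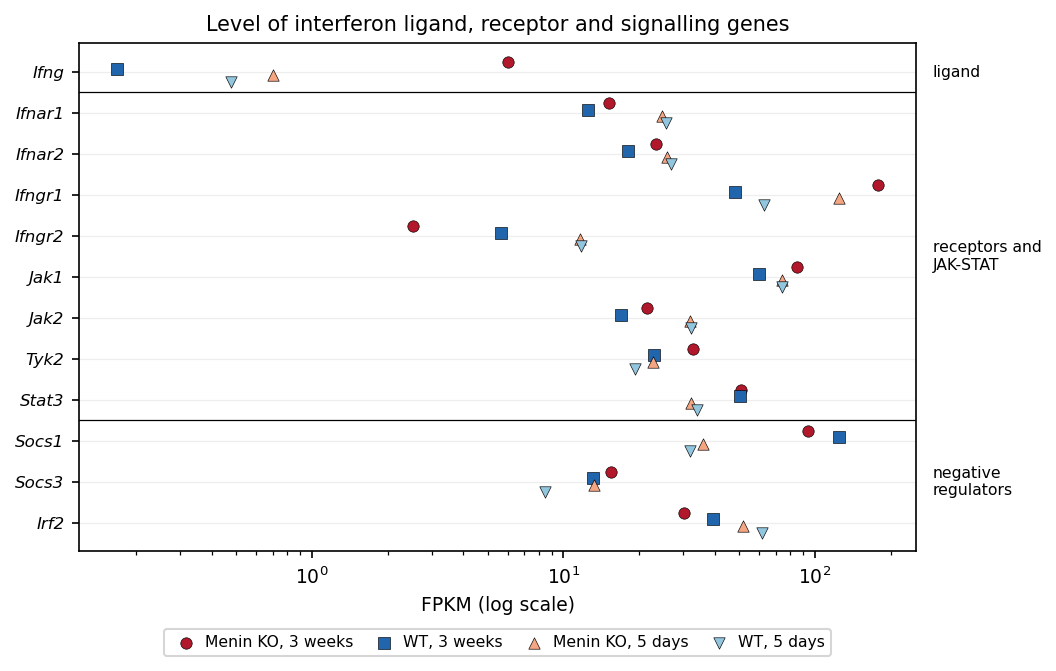
FPKM (log scale) of interferon gamma, receptor, JAK, STAT and negative regulator genes in the 4 libraries, 1 symbol per library, set slightly apart in height. Ifng and Ifngr1 are highest in KO 3-week, at 6.03 and 178 FPKM, and Ifngr2 is lowest there, at 2.52 FPKM.

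A further set of 76 interferon-stimulated genes outside the list held 73 that were matched and 63 that were compared. At 3 weeks 25 of the 63 were at least 2-fold higher in KO and 1 lower, with a median of 0.64, beside 7.97% and 8.19% of all compared genes. At 5 days 4 were higher and 0 lower, with a median of 0.23, beside 2.77% and 0.82%. Those named here were chosen after their values were seen. Ifi204, a DNA-sensor family gene, stood at 16.7 FPKM in KO and 0.400 FPKM in WT at 3 weeks, and at 3.99 FPKM in KO and 1.53 FPKM in WT at 5 days. Samd9l stood at 43.4 FPKM in KO and 7.04 FPKM in WT at 3 weeks, and at 22.2 FPKM in KO and 13.5 FPKM in WT at 5 days. Cd274, which encodes the inhibitory ligand PD-L1, stood at 32.7 FPKM in KO and 5.27 FPKM in WT at 3 weeks, and at 6.53 FPKM in KO and 4.43 FPKM in WT at 5 days. Parp12 stood at 13.8 FPKM in KO and 1.97 FPKM in WT at 3 weeks, and at 5.02 FPKM in KO and 2.18 FPKM in WT at 5 days. The 4 higher in KO at 5 days were Ifitm1, Ifitm2, Ifitm3 and Lgals3bp, and these were higher at 3 weeks as well. Psmb8, Psmb9 and Tap1, genes of antigen processing that interferon gamma also induces, did not reach the rule at 3 weeks. Psmb8, an immunoproteasome subunit gene, stood at 289 FPKM in KO and 376 FPKM in WT at 3 weeks, and Psmb9 at 145 FPKM in KO and 182 FPKM in WT. Tap1, a peptide transporter gene, stood at 137 FPKM in KO and 109 FPKM in WT at 3 weeks. Gbp4, Gbp5 and Gbp6, relatives of Gbp2, had lower FPKM in KO than in WT at 3 weeks, with Gbp4 at 68.2 FPKM in KO and 103 FPKM in WT.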

How the data were processed

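The deposited files give FPKM per gene symbol, 1 library each. TRIzol was used to extract RNA, and a TruSeq Stranded mRNA kit to build the libraries, per the labels' protocols. Bowtie 0.12.8, TopHat 1.3.2, Cufflinks 2.0.2 and mm10 are named in the submitters' processing notes, while the annotation, filters and strand setting the authors used are not stated there. Of 23746 lines per file, 702 held 240 repeated symbols and were summed, and 1 symbol with an error mark in the KO 5-day file was left out.

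Depth was read from low FPKM values of protein-coding genes with 1 transcript in GENCODE M21 (GRCm38) and a length reduced by 200 bases. Of values under 5.5 reads, 55.6% to 59.8% lay within 0.05 of a whole number, against 10% for evenly spread values. Counting intervals are exact Clopper-Pearson 95% intervals of the share of reads (scipy 1.17.1), with the median coding transcript length of GENCODE's basic set.

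Ratios were log2((a + 1)/(b + 1)), genes with a mean of at least 1 FPKM were compared, and the steps were tested on simulated counts. Groups came from the titles. Members and gene lists were chosen with earlier results of these data known, so they are no independent support. Members at least 2-fold apart with 5 FPKM or more in any library are given in full, others by choice for their role. Of 167 further genes listed, 163 were matched, 9 of them by an older symbol in RefSeq, and Mb21d1, Phf11d, Helz2 and Rnf213 were not analysed. 1 other pathway gene is not reported here. Alternatives were other pseudocounts, filters, scalings and ways to join repeated symbols.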

Additional observations from a re-analysis of the deposited data

Results flagged for a closer look

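In 4 genes the KO library lay above the WT library at 3 weeks by the 2-fold rule and below it at 5 days. The difference of the log2 ratios, 3 weeks minus 5 days, was 3.65 for Isg15, 3.89 for Ifit1, 1.56 for Ifit3 and 1.24 for Irf9. With 1 library in each group the difference was not tested. The 5-day ratios of all 4 had counting intervals that include 1, at 0.588 to 1.25 for Isg15, 0.555 to 1.03 for Ifit1, 0.0773 to 1.12 for Ifit3 and 0.857 to 1.01 for Irf9, so their side of 1 at 5 days was not detectable at this depth.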

How the results depend on the processing

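The counts of higher and lower compared members in the genotype and culture contrasts and in their difference were recomputed under 8 alternatives, and the 2 promoter counts under 1. Of these 82 recomputed counts 67 stayed within 1.5 times of the reported one. Part of that was fixed in advance. Each member is on 1 line, so the other way to join repeated symbols could not change a member count. A count of 0 that stayed 0 was also taken as within the limit. Counts over all 40 members beyond that, by role, by interval and in the pathway lists were not recomputed. No called member changed direction, 0 of the 3-week and 5-day counts of lower members left 0, and the 3-week count of 21 higher members moved by more than 1.5 times only with a pseudocount of 5. Under that pseudocount, 12 members were higher in KO at 3 weeks, 1 at 5 days, 7 in KO at 3 weeks against 5 days, 0 were higher and 0 lower in WT at 3 weeks against 5 days, and 1 had a genotype difference at least 4-fold larger at 3 weeks. With a pseudocount of 0.1, 6 members were lower in WT at 3 weeks against 5 days, and 7 had the 4-fold larger difference. With a mean of at least 5 FPKM, 6 were higher in KO at 3 weeks against 5 days, 0 lower in WT and 1 had the 4-fold larger difference. With at least 1 FPKM in both WT libraries these were 7, 0 and 1. The shares over all genes in these contrasts also depend on the setting and are not given here. These counts alone therefore do not show how the list stood beside other genes under each setting. With upper-quartile scaling 1 was higher in WT at 3 weeks against 5 days. Under it the 10973 compared genes had a median of 0.02 beside -0.08 at 3 weeks, and the shares called to 9.25% higher and 6.34% lower, beside 7.97% and 8.19%, while the members' median was 1.20 beside 1.11. Causes were not tested beyond what each setting does by construction. No paired analysis was possible because each group held 1 library. Low members are limited by depth: 6 of the 40 had under 10 inferred reads in WT 3-week.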
